A study of Mus musculus with 26 samples.

Results

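The levels of 8 genes of the germinal centre were followed in bulk RNA-seq of mouse distal colon during colitis-driven tumorigenesis: *Bcl6*, *S1pr2*, *Rgs13*, *Gcsam*, *Mef2b*, *Cr2*, *Fcer2a* and *Il21*. They were chosen by name, as 8 of the 35975 genes to which the transcripts of the tables belong, and each gene's level is the sum of the estimated counts of all its transcripts. The 26 libraries came from wild-type male C57BL/6J mice that were about 10 weeks old at the start. The mice ate standard food or food with GW3965, a synthetic agonist of the liver X receptors (LXR). Colon tumours were induced with the carcinogen azoxymethane (AOM) followed by cycles of dextran sulfate sodium (DSS), which damages the epithelium. Tissue from the part of the distal colon where tumours arise was taken at days 22, 43 and 70, with 3 libraries per diet and day. The study saw no macroscopic tumours at day 22, and at day 43 nearly all were in mice on the standard diet. Day 0 stands for mice on the same diets for 22 or 43 days that received neither AOM nor DSS, with 4 libraries per diet. Mice of 1 diet shared 1 cage at days 22 and 43 and another at day 0, so that diet and cage cannot be told apart there, and neither can AOM–DSS and cage in the comparisons of these days with day 0. Each day 70 library came from a cage of its own, none of them a day 0 cage. The study describes its bulk RNA samples as pools of animals in one place and by mice per timepoint in another, so the p-values measure the spread between libraries.

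Germinal centres are transient structures inside B cell follicles, in which activated B cells divide, mutate their antibody genes and are selected by follicular helper T cells on a network of follicular dendritic cells. In the colon they form in the lymphoid patches and follicles of the wall. BCL6 is the transcriptional repressor that germinal centre B cells and follicular helper T cells require, and MEF2B is a transcription factor that induces *Bcl6*. S1PR2 is a receptor for sphingosine-1-phosphate that holds B cells inside the germinal centre, RGS13 dampens chemokine receptor signalling and GCSAM restrains B cell motility. *Cr2* encodes the complement receptors CR2 and CR1, *Fcer2a* encodes the low-affinity IgE receptor CD23, and both are carried by mature B cells and by follicular dendritic cells. Interleukin-21, encoded by *Il21*, is the main cytokine of follicular helper T cells. None of the 8 is restricted to 1 cell type, and in bulk tissue fewer cells and less RNA per cell cannot be told apart.

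*Cr2* carried the largest diet difference of the 8 genes, and its 2 kinds of receptor differ by splicing, so the junctions that separate them are shown first. The gene lies on the minus strand of chr1:195136811-195176716 (GRCm38). The short form joins its first exon directly to the exon at chr1:195163198-195163587, and the long form inserts 7 exons (1128 bases, all within chr1:195165039-195171170) between them. Of each junction, 24 bases of the upstream exon are in lower case and 24 bases of the downstream exon in capitals.
Cr2 short form: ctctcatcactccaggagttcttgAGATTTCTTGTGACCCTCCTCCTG
Cr2 long form, into the inserted exons: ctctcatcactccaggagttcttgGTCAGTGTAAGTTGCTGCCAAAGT
Cr2 long form, out of the inserted exons: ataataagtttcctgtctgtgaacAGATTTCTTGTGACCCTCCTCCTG
The first pair share the upstream bases, and the first and last share the downstream bases.

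The promoters of *Cr2* and *Fcer2a*, the 2 genes called between the diets at day 70, are shown as the 250 bases before the RefSeq start (GRCm38.p6, minus strand), at chr1:195176720-195176969 and chr8:3694175-3694424.
Cr2 promoter: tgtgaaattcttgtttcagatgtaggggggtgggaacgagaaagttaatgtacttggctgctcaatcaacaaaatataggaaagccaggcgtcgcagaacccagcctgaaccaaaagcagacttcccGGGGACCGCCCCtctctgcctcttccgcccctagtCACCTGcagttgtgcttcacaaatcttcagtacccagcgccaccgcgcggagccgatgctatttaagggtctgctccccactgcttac
Fcer2a promoter: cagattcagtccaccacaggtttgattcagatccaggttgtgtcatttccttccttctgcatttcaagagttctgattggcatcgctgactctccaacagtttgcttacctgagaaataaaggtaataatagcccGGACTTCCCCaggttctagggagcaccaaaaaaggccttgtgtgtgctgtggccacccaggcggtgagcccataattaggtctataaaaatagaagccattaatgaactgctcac
Capitals mark matches to the NF-kB pattern GGGNNNNNCC on either strand (in *Cr2* 3 overlapping matches in 1 stretch) and, in *Cr2*, the E-box CACCTG, the reverse complement of CAGGTG. The NF-kB pattern was in 45.8% of the 32851 RefSeq promoters of this length and in 6 of the 11 promoters of the 8 genes, and the E-box was in 17.2% of all and in 3 of the 11. An LXR element of the form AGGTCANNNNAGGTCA was in 0.0152% of all promoters and in 0 of the 11, the MEF2 pattern CTANNNNTAG in 3.2% and 0, and the BCL6 pattern TTCCTAGAA in 0.347% and 0. The octamer ATGCAAAT, in 1.6% of all, was found in a promoter of *Mef2b*. These are matches of letters in a short window and say nothing about binding. The other 6 genes lie at chr16:23965052-23988852 (*Bcl6*), chr9:20962361-20976781 (*S1pr2*), chr1:144138654-144177372 (*Rgs13*), chr3:37222759-37232636 (*Il21*), all on the minus strand, and at chr16:45610380-45622867 (*Gcsam*) and chr8:70139711-70167488 (*Mef2b*) on the plus strand.

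*Bcl6* and *Cr2* were the most abundant of the 8 genes and *Il21* the least. Per length of transcript (TPM), the median over the 26 libraries was 4.42 for *Bcl6*, 4.08 for *Cr2*, 3.59 for *Fcer2a*, 2.38 for *S1pr2*, 1.36 for *Rgs13*, 0.721 for *Gcsam*, 0.496 for *Mef2b* and 0.164 for *Il21*. A library was called near the detection limit of a gene when it held fewer than 10 of its counts, in libraries of 18195345 to 41522204 counts. *Bcl6* and *S1pr2* were above this limit in every library. *Il21* was under it in 15 of the 26 libraries and *Mef2b* in 13, whereas *Rgs13* was under it in 4, *Cr2* in 3, *Fcer2a* in 2 and *Gcsam* in 1. All 3 low libraries of *Cr2*, both of *Fcer2a* and the 1 of *Gcsam* were standard diet libraries of day 70, and those of *Rgs13* were day 70 libraries, 2 of each diet. *Mef2b* was near the limit in 7 and *Il21* in all 8 of the day 0 libraries. At day 70 each of them was near it in 3 standard diet and 2 GW3965 libraries. All 8 passed the filter on low counts, and levels below are CPM, counts scaled to the size of the library by TMM.

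**Figure D1:**
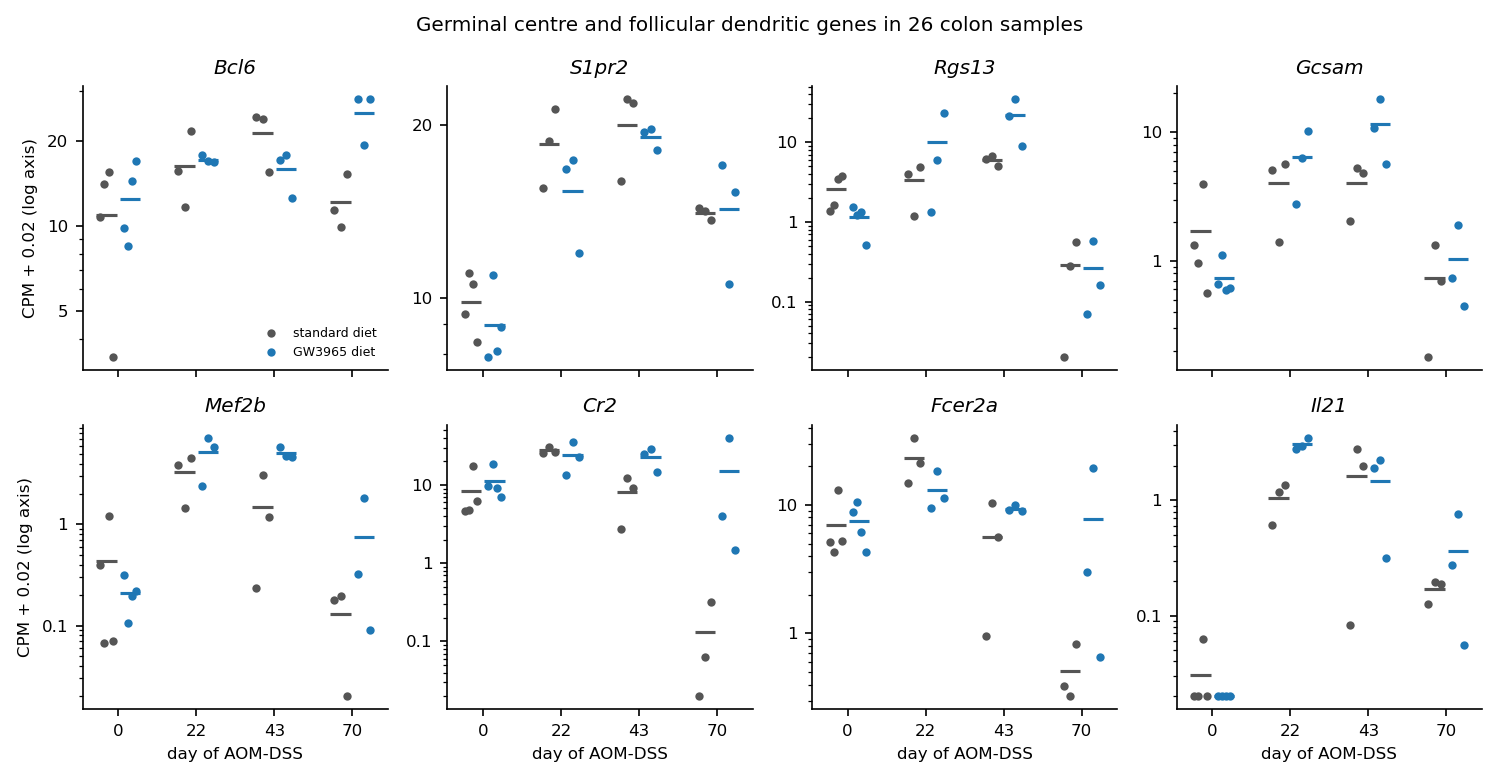
Level of each gene in each library, in CPM on a log axis (0.02 was added so that libraries at 0 can be drawn), for the standard and GW3965 diets at days 0, 22, 43 and 70, with the group mean as a line. Each panel has its own axis, and *Cr2* and *Fcer2a* reached their lowest group means in the 3 standard diet libraries of day 70.

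Before the results, the libraries that stand apart are named. The colon epithelium markers were present in every library, with a summed level of 2214 to 13505 CPM over 8 genes. The RNA integrity number was 2.6 to 9.3 at day 43 and 9.1 to 10 at the other days, and ribosomal protein genes took 10.0% to 18.6% of the counts at day 43 against 3.96% to 10.7% at the other days, and this percentage was a term of the tests. GW3965 replicate 2 of day 70 held 465 CPM of 10 mature B cell markers in sum, against 77.6 and 33.6 in the other GW3965 libraries and 8.83 to 18.2 in the standard diet libraries of that day. The same library held 4.31 CPM of 5 keratin genes of stratified epithelium, against 3135 to 17267 in the other 5 libraries of day 70. GW3965 replicate 1 of day 70 held 15218.5 CPM of 5 skeletal muscle markers, against 8.57 to 540 in the other 5, with the lowest colon epithelium sum (2214 CPM) and the highest smooth muscle (7081 CPM) and stratified epithelium (17267 CPM) sums of that day. One day 0 library whose title and diet label disagree was grouped by its title.

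The first question is how the genes behaved from healthy colon through the course of AOM–DSS on the standard diet. At day 22, *S1pr2* and *Il21* rose, as 2 of the 8 genes with an FDR below 0.05 in edgeR's quasi-likelihood test, where 7.73% of the 17063 genes tested were called and 6.19% were called higher. *S1pr2* was 9.37, 11, 10.6 and 8.37 CPM in the day 0 libraries and 15.5, 18.8 and 21.3 CPM at day 22. The groups did not overlap, and the log2 fold change was 0.93 (SE 0.194, FDR = 0.00676). *Il21* had 1 count in the 4 day 0 libraries together and 11, 23 and 26 counts at day 22 (FDR = 0.0134), a ratio after scaling for depth of 89.7 with a counting interval of 15.5 to 3601. Both calls were lost without replicate 3 of day 22 (FDR = 0.0578 for *S1pr2* and 0.0575 for *Il21*). *Mef2b*, *Cr2* and *Fcer2a* had no library of day 22 below the highest of day 0, with log2 fold changes of 3.02, 1.68 and 1.80, and did not pass (FDR = 0.0651, 0.231 and 0.188). Non-overlap towards higher values was seen in 15.9% of all genes in this comparison.

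At day 70 on the standard diet, *Cr2*, *Fcer2a* and *Rgs13* were lower than at day 0 and *S1pr2* was higher, 4 of the 8 genes called against 33.2% of all genes (15.1% lower and 18.1% higher). *Cr2* had 98, 101, 408 and 127 counts in the day 0 libraries and 0, 1 and 7 at day 70, which is 8.26 ± 6.12 CPM (SD, n = 4) and 0.113 ± 0.160 CPM (SD, n = 3). No day 70 library reached the lowest of day 0, as for 19.3% of all genes in this direction, and the log2 fold change was -6.05 (SE 1.18, FDR = 0.000909). *Fcer2a* went from 6.91 ± 4.09 to 0.492 ± 0.271 CPM (log2 fold change -3.78, SE 0.936, FDR = 0.00451), also with no overlap. *Rgs13* had 29, 34, 81 and 76 counts at day 0 and 0, 6 and 13 at day 70 (log2 fold change -3.29, SE 0.892, FDR = 0.00800). *Gcsam* and *Mef2b* had log2 fold changes of -1.28 and -1.93 with overlapping groups (FDR = 0.184 and 0.226). *S1pr2* had a log2 fold change of 0.52 (SE 0.188, FDR = 0.0400), a call that was lost on leaving out any 1 library other than day 0 replicate 2 (FDR = 0.0546 to 0.107). The summed mature B cell markers moved the same way, from 50.9 to 269 CPM at day 0 to 8.83 to 18.2 CPM at day 70, and 9 of the 10 were called lower; all 6 smooth muscle markers were also called lower (median log2 fold change -2.56) and all 5 of stratified epithelium higher (median 11.1), the latter from 2.30 to 3.44 CPM in sum at day 0 to 3135 to 4311 CPM at day 70. The part of these lists in the changes of the 8 genes was not tested.

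On the GW3965 diet at day 22, *Mef2b*, *Gcsam*, *S1pr2* and *Il21* rose against day 0, 4 of the 8 against 12.6% of all genes called and 9.13% called higher. *Mef2b* had 6, 2, 4 and 4 counts at day 0 and 45, 148 and 128 at day 22, a log2 fold change of 4.97 (SE 1.12, FDR = 0.00618). *Gcsam* was 0.639, 1.08, 0.574 and 0.597 CPM at day 0 and 2.73, 6.25 and 10.2 CPM at day 22 (log2 fold change 2.67, SE 0.755, FDR = 0.0241). Neither pair of groups overlapped, as for 25.2% of all genes in this direction, and the call of *Gcsam* was lost without day 0 replicate 1, 3 or 4 or day 22 replicate 2 (FDR = 0.0550 to 0.0980). *S1pr2* had a log2 fold change of 0.80 (SE 0.197, FDR = 0.0114), and was not called without day 22 replicate 1 or 2 (FDR = 0.0885 and 0.0745). *Il21* had no count in the 4 day 0 libraries and 52, 61 and 77 at day 22 (FDR = 0.00126), which is at least 89.1-fold higher when the day 0 group is given the floor of 3 counts. *Rgs13* ranged from 25 to 514 counts at day 22 and did not pass (log2 fold change 2.25, FDR = 0.0918).

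At day 70 on the GW3965 diet, *Bcl6*, *S1pr2* and *Il21* were higher than at day 0, 3 of the 8 against 21.8% of all genes called and 14.4% called higher, and 0 were lower. *Bcl6* was 9.88, 8.49, 14.5 and 17 CPM at day 0 and 28.2, 19.3 and 28.0 CPM at day 70. The groups did not overlap, as for 18.3% of all genes in this direction, with a log2 fold change of 1.06 (SE 0.369, FDR = 0.0445), and the call was lost without day 0 replicate 1, 2 or 3 or day 70 replicate 1 or 3 (FDR = 0.0597 to 0.131). *S1pr2* had a log2 fold change of 0.66 (SE 0.194, FDR = 0.0193) with overlapping groups, and was not called without day 0 replicate 1 or day 70 replicate 1 or 3 (FDR = 0.0566 to 0.0931). *Il21* had 5, 20 and 1 counts (FDR = 0.0121), at least 9.96-fold above the floor of day 0, and was not called without replicate 2 (FDR = 0.0635). *Cr2* and *Fcer2a* had log2 fold changes of 0.53 and -0.01 (FDR = 0.683 and 0.997). Without replicate 2 of day 70 they had -1.98 and -2.11 (FDR = 0.0570 for *Cr2*), so the direction for *Cr2* rested on that library. The comparisons of a diet share its day 0 libraries.

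**Figure D2:**
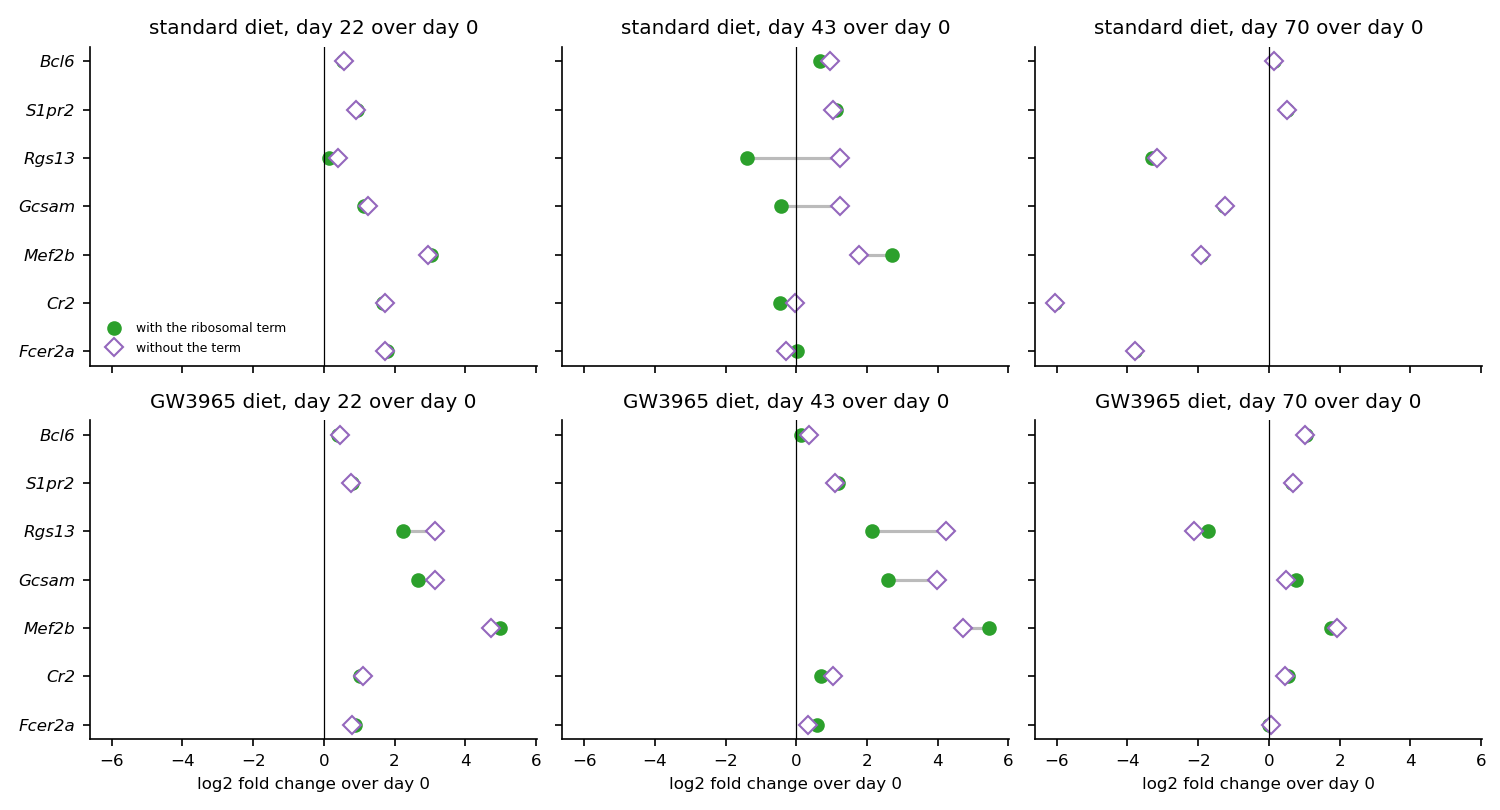
Log2 fold change of 7 genes against day 0 of the same diet at days 22, 43 and 70 (columns) for each diet (rows of panels), from the edgeR fit with the ribosomal percentage (filled circles) and without it (open diamonds), joined by a line. *Cr2* stands at -6.05 on the standard diet and 0.53 on the GW3965 diet at day 70, *Rgs13*, *Gcsam* and *Fcer2a* change sign between the fits at day 43 of the standard diet and *Fcer2a* also at day 70 of the GW3965 diet, and *Il21* is left out because its day 0 level was at the floor.

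Day 43 could not be separated from its ribosomal percentage, which did not overlap with that of day 0 (5.33% to 6.51%). With the percentage in the model, 0 of the 8 genes were called against day 0 on either diet by edgeR, where 0% of all genes were called on the standard diet and 0.938% on the GW3965 diet. The unadjusted p was below 0.05 for 2 and 4 of the 8 genes, against 8.02% and 13.6% of all genes, and DESeq2 called 0 and 3, against 1.24% and 3.43%. Without the percentage, edgeR called 3 of the 8 on the standard diet and 5 on the GW3965 diet, all higher, where it called 55.1% and 45.3% of all genes. *Rgs13* on the standard diet changed from a log2 fold change of -1.39 with the percentage to 1.23 without it, and *Gcsam* from -0.44 to 1.25. On the GW3965 diet, *Rgs13* had 31, 28, 30 and 10 counts at day 0 and 362, 519 and 181 at day 43, with a log2 fold change of 2.14 with the percentage (FDR = 0.469) and 4.25 without it (FDR = 0.000384). *Mef2b*, with 99, 70 and 95 counts at day 43, had 5.45 (FDR = 0.0942) and 4.71 (FDR = 0.00112). *Il21* had 2, 52 and 37 counts on the standard diet and 32, 33 and 6 on the GW3965 diet.

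Between neighbouring timepoints no gene of the 8 was called. From day 22 to 43, edgeR called 0% of all genes on the standard diet and 0.147% on the GW3965 diet, and the unadjusted p was below 0.05 for 0 of the 8 on either, against 3.22% and 5.64% of all genes. From day 43 to 70 it called 0% on both, with an unadjusted p below 0.05 for 3 of the 8 on the standard diet and 1 on the GW3965 diet, against 9.32% and 5.58% of all genes. DESeq2 called 0 of the 8 in these 4 comparisons, against 0.211% and 0.692% of all genes from day 22 to 43 on the standard and GW3965 diets. From day 43 to 70 it called 0.0762% and 0.141% of all genes. Without the ribosomal percentage, edgeR called 7 of the 8 on the standard diet and 3 on the GW3965 diet from day 43 to 70, against 49.7% and 39.2% of all genes.

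Ordered by mean level over the 8 groups, *Rgs13*, *Gcsam* and *Mef2b* were highest in the GW3965 groups of days 22 and 43. *Rgs13* was lowest in both day 70 groups, and *Gcsam* and *Mef2b* in the standard diet group of day 70. *Cr2* and *Fcer2a* were highest at day 22 of the standard diet, at 27.6 ± 2.86 and 23.1 ± 9.41 CPM (SD, n = 3), and lowest at day 70 of the same diet. *Bcl6* was highest at day 70 of the GW3965 diet (25.2 ± 5.08 CPM) and *Il21* at day 22 of that diet (3.08 ± 0.366 CPM). Most groups next to each other in these orders overlapped. The libraries were apart between day 43 and day 70 of the standard diet for *Cr2* and *Fcer2a*, between days 43 and 22 of the standard diet for *Rgs13*, between day 43 of the GW3965 diet and day 22 of the standard diet for *Mef2b*, and between days 70 and 0 of the standard diet for *S1pr2* and *Il21*. All neighbouring groups of *Bcl6* and of *Gcsam* overlapped. These pairs follow from each gene's own order of means, and the share of all genes that lay apart between them is not given here. The separations are therefore descriptions.

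The second question is whether the diets differed at a given day. In mice without AOM or DSS, 0 of the 8 genes were called by edgeR (0.0293% of all genes) and 0 had an unadjusted p below 0.05 (1.94% of all genes). DESeq2 called 0 of them (0.193% of all genes). All 8 overlapped between the diets, where 2.29% of all genes did not. *Rgs13* was at 2.55 ± 1.23 CPM on the standard and 1.14 ± 0.447 CPM on the GW3965 diet, and *Gcsam* at 1.69 ± 1.54 and 0.723 ± 0.241 CPM (SD, n = 4). Their log2 fold changes were -1.20 and -1.21.

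At day 22 again 0 of the 8 were called (0.135% of all genes), with 0 at an unadjusted p below 0.05 (9.96% of all genes). DESeq2 also called 0 (1.79% of all genes). *Il21* was the 1 gene whose diets did not overlap. It had 0.591, 1.17 and 1.34 CPM on the standard diet and 2.78, 2.98 and 3.49 CPM on the GW3965 diet, a log2 fold change of 1.47 (SE 0.941, FDR = 0.640). Of all genes, 12.1% lay apart and higher on the GW3965 diet at this day. *Cr2* was 27.6 ± 2.86 and 23.9 ± 11.1 CPM (log2 fold change -0.24, SE 0.832, FDR = 0.976).

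At day 43, 4 genes had every GW3965 library above every standard diet library, and 0 were called. *Rgs13* was 6.22, 6.64 and 5.04 CPM on the standard diet and 21.3, 35.1 and 8.87 CPM on the GW3965 diet (log2 fold change 2.32, SE 0.840, FDR = 0.508). *Gcsam* was 2.02, 5.30 and 4.82 CPM and 10.8, 18.1 and 5.63 CPM (log2 fold change 1.82, SE 0.764, FDR = 0.542). The other pair were *Mef2b*, at 0.218, 3.05 and 1.18 CPM and 5.82, 4.73 and 4.65 CPM, and *Cr2*, at 2.74, 12.2 and 9.22 CPM and 24.6, 28.7 and 14.4 CPM. Their log2 fold changes were 1.60 and 1.57 (FDR = 0.684 and 0.630). edgeR called 0.0293% of all genes at this day, and 6.73% of all genes lay apart and higher on the GW3965 diet. Of the 8, 2 had an unadjusted p below 0.05 (8.65% of all genes), and DESeq2 called 0 (0.399% of all genes). The summed mature B cell markers were 109 to 436 CPM on the standard and 348 to 876 CPM on the GW3965 diet, with 0 of the 10 called, and the RNA integrity number was 2.6, 8.4 and 7.8 on the standard and 8, 6.8 and 9.3 on the GW3965 diet. The part of either in these values was not tested.

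At day 70, *Cr2* and *Fcer2a* were higher on the GW3965 diet, 2 of the 8 genes against 1.83% of all genes called and 1.75% called higher. *Cr2* was 0, 0.0435 and 0.296 CPM on the standard diet and 3.94, 40.2 and 1.45 CPM on the GW3965 diet. Every GW3965 library lay above every standard diet library, replicate 2 of the GW3965 diet stood far above the other two, and the log2 fold change was 7.00 (SE 1.24, FDR = 0.0182). *Fcer2a* was 0.368, 0.305 and 0.803 CPM and 2.97, 19.5 and 0.636 CPM, a log2 fold change of 3.88 (SE 0.988, FDR = 0.0483). Its groups overlapped, since the lowest GW3965 library was below the highest of the standard diet. Without GW3965 replicate 2, *Cr2* remained called at 4.52 (FDR = 0.0167), and *Fcer2a* had a log2 fold change of 1.80 (FDR = 0.216). Without GW3965 replicate 1, which held the skeletal muscle markers, *Cr2* had 7.45 (FDR = 0.0123) and *Fcer2a* was not called (FDR = 0.0611). *Fcer2a* was also not called without a filter on low counts (FDR = 0.0635) or without the day 0 library of conflicting labels (FDR = 0.0560). Leaving out any 1 of the 3 standard diet libraries ended both calls, with an FDR of 0.131, 0.0512 and 0.0919 for *Cr2* and log2 fold changes of 6.52, 6.62 and 9.07, the last against 1 count in the 2 remaining libraries. Both calls also ended with only the libraries of day 70 in the fit (FDR = 0.409 for both, with 0 genes called in all) and with the replicate block (FDR = 0.150 and 0.354).

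The other 6 genes were not called at day 70. *Bcl6* was 11.4, 9.88 and 15.3 CPM on the standard diet and 28.2, 19.3 and 28.0 CPM on the GW3965 diet. These groups did not overlap, as in 10.5% of all genes in this direction, with a log2 fold change of 1.09 (SE 0.396, FDR = 0.147). *S1pr2* was 14.1 ± 0.358 and 14.3 ± 3.35 CPM (SD, n = 3), and its log2 fold change was 0.01 (SE 0.206, FDR = 0.984). *Rgs13*, *Mef2b* and *Il21* were near the detection limit in most libraries of both diets. *Rgs13* had 0, 6 and 13 counts on the standard and 1, 15 and 4 on the GW3965 diet (log2 fold change 0.37, FDR = 0.876), *Gcsam* 3, 30 and 16 and 14, 51 and 12 (0.83, FDR = 0.599), and *Mef2b* 3, 4 and 0 and 6, 49 and 2 (2.53, FDR = 0.278). *Il21* had 2, 4 and 4 counts and 5, 20 and 1 (log2 fold change 1.39, FDR = 0.524). The diets overlapped in all 4, and GW3965 replicate 2 held the highest count of each.

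**Figure D3:**
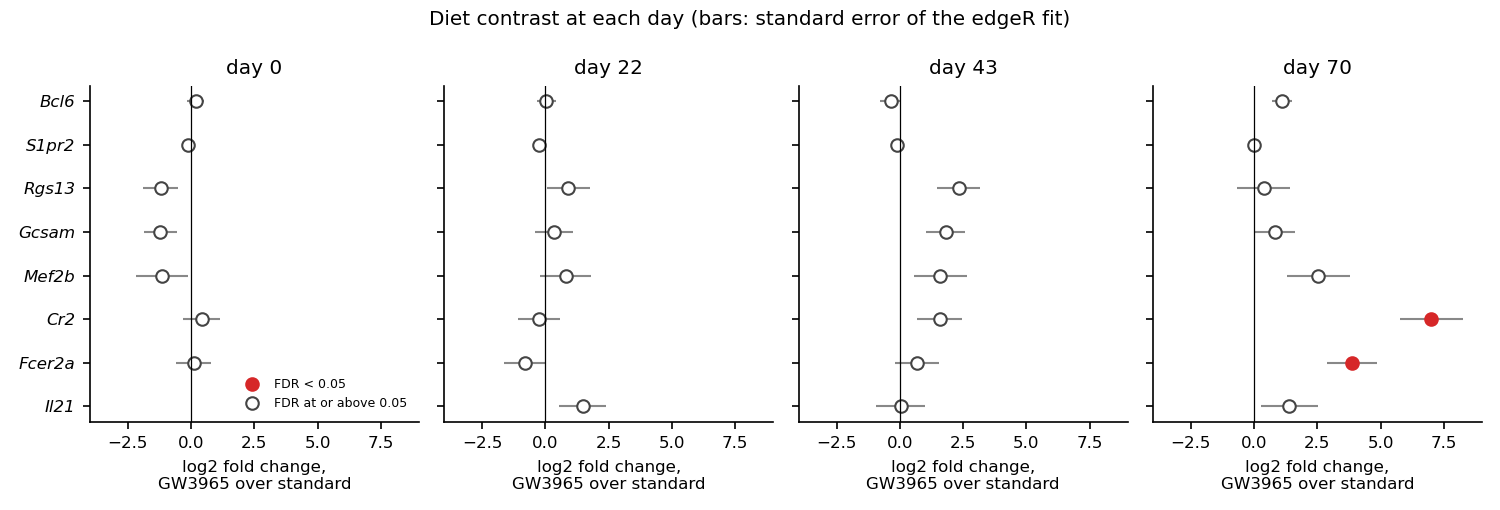
Log2 fold change of the GW3965 over the standard diet for each gene at days 0, 22, 43 and 70, with the standard error of the edgeR fit as bars and filled points for FDR < 0.05. Only *Cr2* (7.00) and *Fcer2a* (3.88) at day 70 are filled, and *Il21* is left out at day 0, where both diets were at or under the floor.

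The difference in diet effect between day 70 and the other days did not pass for any of the 8 genes. For *Cr2* the diet effect at day 70 exceeded that at day 0 by 6.58 on the log2 scale (FDR = 0.145), that at day 22 by 7.25 (FDR = 0.0706) and that at day 43 by 5.43 (FDR = 0.171). For *Fcer2a* the differences were 3.78 (FDR = 0.212), 4.69 (FDR = 0.0900) and 3.21 (FDR = 0.249). edgeR called 0%, 0.0234% and 0.0176% of all genes in the 3 comparisons, 3, 2 and 3 of the 8 genes had an unadjusted p below 0.05 against 12.7%, 20.2% and 16.1% of all genes, and DESeq2 called 2, 2 and 1 of the 8, against 1.81%, 5.51% and 1.86% of all genes. In the joint test of the 4 diet effects edgeR called 0 of the 8 and 0.176% of all genes, with an FDR of 0.100 for *Cr2*, 0.240 for *Fcer2a* and 0.334 for *Rgs13*, and these 3 genes had an unadjusted p below 0.05 (13.5% of all genes). A likelihood ratio test of the same terms, in place of the quasi-likelihood test, called *Cr2* and *Fcer2a*, 2 of the 8 against 3.44% of all genes. Another likelihood ratio test, with all interactions of diet, time and the ribosomal percentage, was run, and its values are not given here.

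*Cr2* and *Fcer2a* followed the B cell content of the libraries closely. Over the 26 libraries the Pearson correlation of log2 CPM with the mean of the 10 mature B cell markers was 0.95 for *Cr2*, 0.91 for *Fcer2a*, 0.83 for *Mef2b*, 0.77 for *Gcsam*, 0.71 for *Rgs13*, 0.65 for *Il21*, 0.33 for *S1pr2* and 0.19 for *Bcl6*. The libraries share diets, days and cages, and these values are descriptions. At day 70 all 10 markers were called higher on the GW3965 diet, with a median log2 fold change of 4.18, where 1.75% of all genes were called higher. Their sum was 465 CPM in GW3965 replicate 2 and 77.6 and 33.6 CPM in the other GW3965 libraries. All genes called at this day fell from 312 to 6, 53 and 7 without standard diet replicate 1, 2 or 3, and the markers were not followed in these fits. *Ms4a1*, which encodes CD20, was 1.27 ± 0.898 CPM on the standard and 24.8 ± 34.3 CPM on the GW3965 diet (SD, n = 3). On the GW3965 diet at day 70, log2 CPM of *Cr2* differed from the marker mean by -0.74, 0.01 and -0.86 in the 3 libraries. On the standard diet at that day *Cr2* differed from it by -2.83, -3.24 and -1.25, from 0, 1 and 7 counts. The part of B cell content in the day 70 results was not tested.

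**Figure D4:**
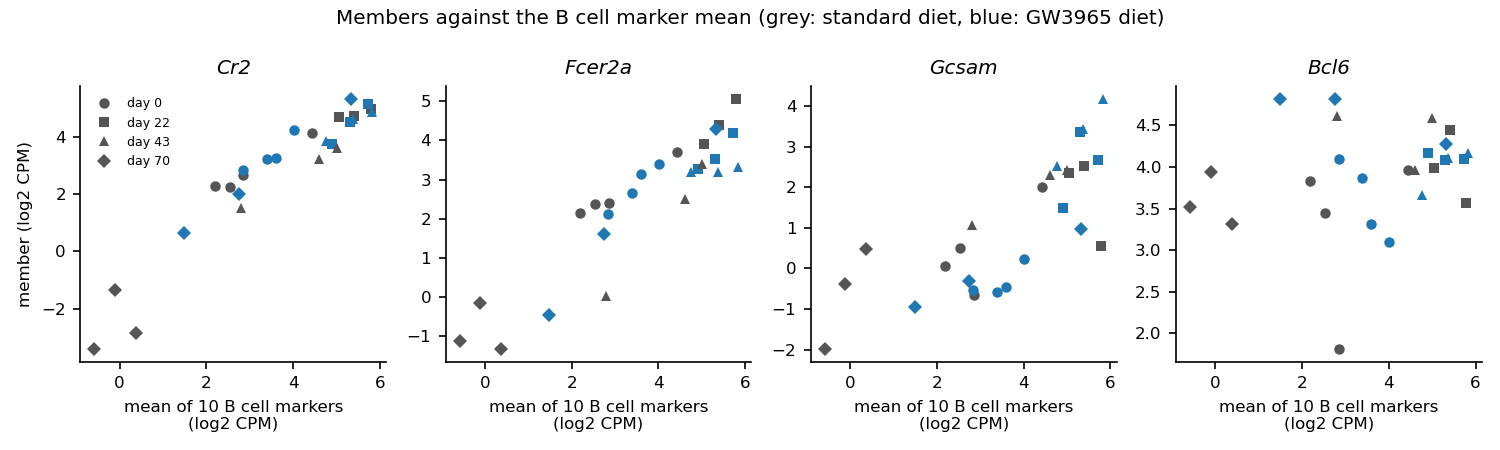
Level of *Cr2*, *Fcer2a*, *Gcsam* and *Bcl6* against the mean of the 10 mature B cell markers in the 26 libraries, both in log2 CPM with a prior count of 2, coloured by diet (grey, standard; blue, GW3965) with a symbol for each day. *Cr2* rises with the marker mean (r = 0.95), and *Bcl6* has a weak relation to it (r = 0.19).

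For each of the 8, genes from the 5 with the highest Pearson correlation of log2 CPM over the 26 libraries are given as a description. For *Cr2* they were *H2-Eb2* (r = 0.98), *Cxcr5* (0.98), *Spib* (0.97), *H2-DMb2* (0.96) and *Ighd* (0.96), and for *Fcer2a* *Spib* (0.97), *Bank1* (0.96), *Cxcr5* (0.96), *Fcmr* (0.95) and *Pax5* (0.95), most of which are genes of mature B cells. For *Mef2b* they were among others *Rhoh*, *Art2b*, *Slamf1* and *Coch* (0.91 to 0.92), and for *Gcsam* among others *Neil1*, *Timd2*, *Nuggc* and *Iglc2* (0.91 to 0.93). For *Rgs13* they were *Sdhb*, *Cox7a2*, *Plgrkt*, *Tnfsf13* and *Cox7c* (0.88 to 0.89), 3 of which encode parts of the respiratory chain, and the correlation of *Rgs13* with the ribosomal percentage was 0.69. *Rgs13* is also known from tuft cells and mast cells. Its correlation was between -0.56 and 0.25 with genes of tuft cells and between -0.29 and 0.38 with genes of mast cells, from short lists chosen after its values were seen. For *Il21* they were *Gm18853*, *Pdcd1lg2*, *H2-DMa*, *Cd274* and *H2-Q4* (0.93 to 0.94). For *S1pr2* they were *Il1r2*, *Il3ra*, *Hmox1*, *Slamf9* and *Clcf1* (0.91 to 0.92), and for *Bcl6* among others *Snai2* (0.79), *C1s2*, *Nfkbiz* and *Xntrpc* (0.67 to 0.71). Of the 10 mature B cell markers, *Spib* was among the 5 genes most like *Cr2*, and *Spib* and *Pax5* were among those most like *Fcer2a*. None was among the 5 for any other gene of the 8. Among the 8 themselves the highest correlations were 0.95 between *Cr2* and *Fcer2a*, 0.88 between *Gcsam* and *Mef2b* and 0.86 between *Rgs13* and *Gcsam*.

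The estimated share of the long form of *Cr2* differed between days. Follicular dendritic cells carry mainly the long form, CR1, and mouse B cells carry both. From the deposited estimates per transcript, the long form (Cr2-212, 25 exons) was expressed as a percentage of the TPM of the long and the 2 short transcripts (Cr2-202 and Cr2-208, 19 exons), in the 23 libraries with at least 10 counts of *Cr2*. At day 0 it was 34.4%, 51.3%, 39.0% and 34.8% on the standard diet and 39.8%, 37.6%, 16.6% and 48.2% on the GW3965 diet. At day 22 it was 27.1%, 14.1% and 31.9%, and 20.2%, 29.6% and 13.4%. At day 43 it was 0% in all 3 libraries of the standard diet and 7.30%, 0% and 9.13% on the GW3965 diet. All 6 libraries of day 43 were below every library of days 0 and 22, and the diets overlapped at days 0, 22 and 43. At day 70 the GW3965 libraries had 27.5%, 36.6% and 0%, the last from 41 counts of *Cr2*, and the standard diet libraries held too few counts. Transcripts Cr2-201, Cr2-207 and Cr2-209, which also reach into the region of the inserted exons, were left out of this percentage. At day 43 they held 0, 3 and 0 counts on the standard diet and 3.08, 7 and 15.7 on the GW3965 diet. In GW3965 replicate 3 of day 70 they held 6 counts, so 0% does not mean that no count fell in that region. The inserted exons lie towards the start of the transcript, and the RNA integrity number was 2.6 to 9.3 at day 43 against 9.1 to 10 at the other days. GW3965 replicate 3 of day 43, at an integrity number of 9.3, had 9.13%, and GW3965 replicates 2 and 3 of day 22, at 9.3 and 9.1, had 29.6% and 13.4%. The part of RNA integrity in these percentages was not tested. A transcript's estimate at 0 can also be a failed estimate, since the forms share part of their sequence. The long transcript (4227 bases) ends at chr1:195141190, and the short ones (6207 and 6212 bases) run on to chr1:195136811. The part of this difference in the percentages was not tested.

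**Figure D5:**
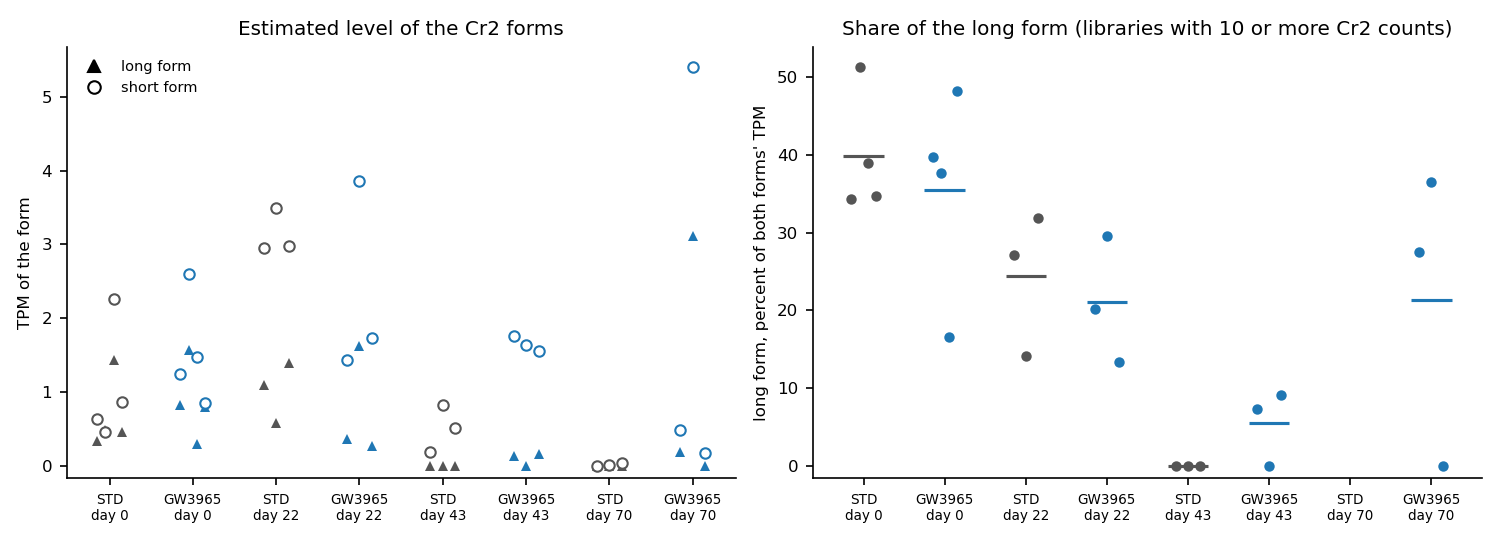
Left, TPM of the long form (triangles) and of the short forms (open circles) of *Cr2* in each library, by diet and day (grey, standard; blue, GW3965). Right, the long form as a percentage of both in each library with at least 10 counts of *Cr2*, with the group mean as a line; the libraries of day 43 lie between 0% and 9.13%, and those of days 0 and 22 between 13.4% and 51.3%.

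Other genes of the follicle were counted from lists of the pathway. Between the diets at day 70, 1.83% of all genes were called and 1.75% were called higher on the GW3965 diet. At day 70, 1 of 10 other germinal centre B cell genes was called higher on the GW3965 diet, with 8 of 10 above 0 and a median log2 fold change of 1.09, where the median over all genes was 0.02. The gene was *Bach2*, a repressor that keeps B cells from becoming plasma cells, at 7.04 ± 6.03 against 1.57 ± 0.215 CPM (SD, n = 3; log2 fold change 2.14, FDR = 0.0406). Of 11 genes of follicular dendritic cells and follicle stroma, 2 were called higher, *Enpp2*, whose product makes lysophosphatidic acid (log2 fold change 2.24, FDR = 0.000169), and the adhesion molecule *Vcam1* (2.06, FDR = 0.0167). *Cxcl13*, the chemokine of the follicle, was 20.8 ± 23.8 against 7.08 ± 5.38 CPM and was not called. None of the genes in these lists was called lower on the GW3965 diet at day 70, where 298 of the 312 genes called in all were higher.

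Of 8 genes of follicular helper T cells, 2 were called higher at day 70, with a median log2 fold change of 2.05. Of all genes, 1.75% were called higher between the diets at this day. *Cxcr5*, the receptor for CXCL13 that B cells carry too, was 12.4 ± 17.3 against 0.138 ± 0.0168 CPM (SD, n = 3; log2 fold change 6.39, FDR = 0.0177). The other was the transcription factor *Maf* (1.91, FDR = 0.0182). Of 9 genes that organise lymphoid tissue, 3 were called higher, with a median of 2.07. They were the chemokines *Cxcl12* (2.07, FDR = 0.0212) and *Ccl19* (5.04, FDR = 0.0252) and the lymphotoxin subunit *Ltb* (2.70, FDR = 0.0469). *Ccl19* was 6.07 ± 6.23 against 0.215 ± 0.175 CPM and *Ltb* 19.3 ± 16.8 against 3.74 ± 2.02 CPM (SD, n = 3). Of 10 genes whose products work with the 8, 3 were called higher, with a median of 0.98. They included *C3*, the source of the complement fragment that CR2 binds, at 702 ± 588 against 72.3 ± 17.2 CPM (log2 fold change 3.36, FDR = 0.00707), and its homologue *C4b* (2.31, FDR = 0.0252). Of the T cell markers 2 of 8 were called higher, of the plasma cell markers 1 of 7, and of the macrophage, neutrophil, colon epithelium and smooth muscle markers 0. The number of all genes called between the diets at day 70 went from 312 to 6, 53 and 7 without standard diet replicate 1, 2 or 3. With the replicate block it was 8, and with only the libraries of day 70 it was 0. The genes of the lists were not followed one by one in these alternatives. At day 43 none of the genes in the 5 lists of the follicle was called between the diets, where 0.0293% of all genes were called.

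Over time, 7 of the 10 other germinal centre B cell genes were called at day 22 against day 0 on the GW3965 diet (median log2 fold change 1.74) and 2 on the standard diet (1.00), against 12.6% and 7.73% of all genes, and the difference between the diets was not tested for the list. At day 70, 1 was called higher and 2 lower on the standard diet, and 0 on the GW3965 diet, against 33.2% and 21.8% of all genes. Of the 11 follicular dendritic and stroma genes, 6 and 3 were called higher at day 22 on the standard and GW3965 diets. At day 70, 1 was called higher and 2 lower on the standard diet, and 3 higher on the GW3965 diet. Of the 9 organiser genes, 4 and 2 were called higher at day 22, while at day 70 1 was called higher and 4 lower on the standard diet and 2 higher on the GW3965 diet.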

How the data were processed

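Colon RNA was measured in 26 libraries, grouped by the diet and day in the sample titles, of which 1 carries a conflicting diet label. The authors quantified the reads with Kallisto (version not given in the sources used here) on GRCm38 cDNA and deposited estimated counts per transcript with TPM, without normalization. Here the estimated counts deposited by the authors were summed by gene (GENCODE vM21), with 116728 of 119414 transcripts matched by identifier, and rounded to whole numbers. TPM, as deposited, was summed by gene to compare levels between genes. Totals ranged from 18195345 to 41522204 counts per library, and intervals and floors cover counting error only. The 8 genes and all lists were chosen with earlier results of these data known.

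Genes were kept by filterByExpr (17063), scaled by TMM and fitted in edgeR 4.0.16 (R 4.3.3) with 8 groups and the share of counts, in percent, that fell on 88 ribosomal protein genes as an additive term. Contrasts were tested by the quasi-likelihood F-test with Benjamini-Hochberg adjustment over all genes tested, at FDR < 0.05. The standard error is the log2 fold change divided by the square root of F. Log2 CPM used a prior count of 2 (limma 3.58.1), and Python 3.11.15 with pandas 2.3.3 and matplotlib 3.10.9 was used for the rest. A ratio of *Il21* against a group of 1 count has an exact 95% interval, and against a group of 0 counts it is a bound from a floor of 3 counts over the group. The fit was tested on simulated counts of 17063 genes with 200 changed by a log2 fold change of 2 at day 70, where it called 137 genes and recovered 133, and it called 0 at days 0, 22 and 43. Alternatives were DESeq2 1.42.0, median-ratio size factors, no filter, no ribosomal term, only the samples of that timepoint, a replicate block, and libraries left out. The joint diet test was also run as a likelihood ratio test of the same terms, and as another with all interactions of diet, time and the ribosomal percentage. Named genes are the 8, of each list the genes called between the diets at day 70 (up to 4 of the smallest p), and the 5 genes of the highest correlation with each of the 8. *Cxcl13* and *Ms4a1* were named after their values were seen. Some genes that this rule names are not reported here. *Mef2b* overlaps *Borcs8* on the same strand, so reads in the shared part are uncertain, although the transcript that spans both had 0 counts. Promoters are those of RefSeq on GRCm38.p6 and were matched for all 8 genes.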

Additional observations from a re-analysis of the deposited data

Results flagged for a closer look

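In the 16 groups of 4 libraries (8 genes, 2 diets at day 0), 4 held 1 library far from the others by Dixon's criterion, where chance flags about 1 group in 20. The groups share libraries and are not independent. In standard diet replicate 3 of day 0, *Cr2* was 17.4 CPM against 4.62 to 6.29 CPM in the other libraries of the group, and *Fcer2a* was 13 CPM against 4.30 to 5.2 CPM. The mature B cell markers were also highest in this library, with a mean log2 CPM of 4.43 against 2.19 to 2.85. *Il21* was 0.0426 CPM there, which is 1 count, against 0 in the other libraries, where any count at all meets the criterion. *Gcsam* in GW3965 replicate 2 of day 0 was 1.08 CPM, which is 25 counts, against 0.574 to 0.639 CPM in the others. The cause was not tested for any of them.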

How the results depend on the processing

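Of 68 log2 fold changes of the 8 genes, the alternatives other than leaving out 1 library gave 425 values of the same sign on the same side of the threshold, 36 newly called, 15 no longer called and 13 of the opposite sign, and leaving out 1 library gave 431, 7, 31 and 19. Opposite signs came without the ribosomal term for *Gcsam* (1.25) and *Rgs13* (1.23) at day 43 against day 0 on the standard diet and for *Rgs13* between the diets at day 70 (-0.12), and for *S1pr2* between the diets at day 70 with DESeq2 (-0.0025), median-ratio size factors (-0.00061) and the replicate block (-0.020). For *Fcer2a* against day 0 they came at day 43 on the standard diet with DESeq2 (-0.047), median-ratio size factors (-0.029), without the term (-0.31), with the block (-0.017) and without the library of conflicting labels (-0.023), and at day 70 on the GW3965 diet without the term (0.053) and without the library of the lowest RNA integrity (0.022). The cause was not tested. With a likelihood ratio test of the same terms the joint diet test gave an FDR of 2.24e-05 for *Cr2* and 0.0381 for *Fcer2a*.

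Counts of all genes called between the diets changed at day 0 from 5 to 33 with DESeq2. At day 22 they changed from 23 to 305 with DESeq2, 13 without the ribosomal term, 77 with only that timepoint, 4 with the replicate block and 61 without the library of the lowest RNA integrity. At day 43 they changed from 5 to 68 with DESeq2, 18 without the term, 2 with only that timepoint and 0 with the block. At day 70 they changed from 312 to 1162 with DESeq2, 151 without a filter, 524 without the term, 0 with only that timepoint, 8 with the block, 851 without the library of the lowest RNA integrity and 195 without the library of conflicting labels. Against day 0, the GW3965 diet at day 22 (2149) gave 3534 without the term, 3252 without the library of the lowest RNA integrity and 1254 without that of conflicting labels. At day 43 (160) it gave 585 with DESeq2 and 7729, 413 and 70 under those 3. The standard diet gave 2030 with DESeq2 and 2118 without the library of the lowest RNA integrity at day 22 (1319), and 212, 1 and, without the term, 9394 at day 43 (0).

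Of the 8 genes, those called between the diets at day 70 (2) became 1 without a filter, 0 with only that timepoint, 0 with the replicate block and 1 without the library of conflicting labels. Against day 0, the GW3965 diet at day 43 (0) gave 3 with DESeq2 and 5 without the term, against 3.43% and 45.3% of all genes. Without the library of the lowest RNA integrity it gave 2, where 413 genes were called in all. At day 70 (3) it gave 1 without a filter, and the count of all genes under that alternative is not given here for this comparison. Without the term, 3 were called at day 43 of the standard diet (0), against 55.1% of all genes. From day 43 to 70, also without it, 7 were called on the standard and 3 on the GW3965 diet (0 in both), against 49.7% and 39.2% of all genes. The differences of the diet effect (0) gave 2, 2 and 1 with DESeq2, against 1.81%, 5.51% and 1.86% of all genes. For day 22 they gave 1 without the term (0.246% of all genes) and 2 without the library of the lowest RNA integrity. The share of all genes is not given here for the latter. With a limit of 5 counts, 1 gene in place of 2 was near the detection limit in 13 or more libraries.

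Replicate numbers did not pair the libraries, since the deviations of same-numbered libraries had a mean correlation of -0.066 over 13 pairs, from -0.370 to 0.201. With the replicate block, *Cr2* between the diets at day 70 had 5.95 (FDR = 0.150) and *Fcer2a* 2.74 (FDR = 0.354) in edgeR's test. Against day 0 at day 70, it ended the calls of *S1pr2* on the standard diet (0.51, FDR = 0.0620) and of *Bcl6* on the GW3965 diet (1.04, FDR = 0.0712). No other call of the 8 genes given in the text was lost with it.

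Leaving out 1 library at a time gave between the diets 5 to 21 genes called at day 22, 2 to 285 at day 43 and 6 to 1464 at day 70. Against day 0 it gave 847 to 1690 for day 22, 10 to 110 for day 43 and 2606 to 4011 for day 70 with GW3965. On the standard diet it gave 382 to 1389 for day 22 and 0 to 2 for day 43. Of the 8 genes it gave 0 to 2 between the diets at day 70, 2 to 4 and 1 to 3 for GW3965 at days 22 and 70 against day 0, 0 to 3 on the standard diet at day 22, and 0 to 2, 0 to 2 and 0 to 1 for the differences of the diet effect. Counts of all genes are not given here for these differences. Folds that changed sign ranged from -1.84 to 0.49 for *Cr2*, -1.78 to 0.66 for *Gcsam* and -1.87 to 0.78 for *Fcer2a* at day 43 against day 0 on the standard diet. At day 70 against day 0 on the GW3965 diet they ranged from -1.98 to 1.12 for *Cr2* and -2.11 to 0.59 for *Fcer2a*. Between the diets at day 22 the range was -0.73 to 0.063 for *Cr2*. From day 43 to 70 on the standard diet it was -1.68 to 0.49 for *Gcsam* and -2.47 to 0.80 for *Il21*. Between the diets at day 70 it was -0.043 to 1.53 for *Gcsam*, -1.02 to 1.26 for *Rgs13* and -0.12 to 0.20 for *S1pr2*.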
